A study of Oryza sativa with 8 samples.

Results

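The 124 genes described here are those whose mRNA stood highest in rice roots of the D6 carbon dot group. They were chosen from 55801 loci by their measured values: in both D6_100X libraries a gene had to reach 5 FPKM, and the lower of these libraries had to be at least 2 times the highest of the other 6 libraries. FPKM, the fragments of a gene per unit of its length and of the library size, is the unit of all levels below. Because the choice used every library, the height of the D6_100X values over the others is a description of the chosen genes and was not tested. The 124 genes were 0.865% of the 14341 loci that reached 5 FPKM in both D6_100X libraries.

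The roots were of Oryza sativa, and the study deals with priming of rice seed with carbon dots, nanometre-sized carbon particles. There were 4 groups of 2 libraries: D4_CK and D6_CK, whose treatment is labelled normal, and D4_100X and D6_100X, which received the carbon dots. What D4, D6 and 100X stand for is not defined in the labels, so the names are used as names only, and no cultivar, seedling age or growth condition is assumed. Nothing states that the replicates came from separate plants, so the p-values measure the spread between these libraries, which may be technical.

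The FPKM denominator, inferred from the steps between FPKM values, was 22.87 M fragments in every library. Whether the libraries were subsampled or normalised further is not stated. With this inferred denominator, the lower D6_100X library held a median of 532.5 reads per chosen gene, with a minimum of 29. Of the listed marker loci, 4 had a matched symbol. The root silicon transporter gene NIP2-1 stood at 175 to 296 FPKM at D4 and 584 to 805 FPKM at D6, the leaf gene RBCS at 0 to 0.452 FPKM and the seed storage genes GLUA1 and GLUA2 at 0.352 to 2.23 FPKM. Among listed shoot loci without a matched symbol, LOC_Os11g13890 read 3.42 to 7.68 FPKM over the 8 libraries. LOC_Os01g41710 read 1.98 FPKM in D6_CK replicate 1 and 0.0354 in D6_CK replicate 2. LOC_Os12g19381 and LOC_Os07g37240 reached at most 0.150 and 0.202 FPKM. LOC_Os02g44310, a listed root locus without a matched symbol, moved with the groups. It read 2761 to 4119 FPKM at D4, 1894 in each D6_CK library, and 981 and 1172 in D6_100X, and its part in the results was not tested. Each library is RNA of whole roots, in which a change in the number of cells of a type and a change in RNA per cell cannot be told apart.

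Growing roots are shaped by auxin and cytokinin: Aux/IAA proteins hold auxin response genes silent until auxin triggers their breakdown, and cytokinin oxidases degrade cytokinin. MYB proteins are DNA-binding regulators, many of which act in responses to drought, salt or cold. Small heat shock proteins keep unfolding proteins from clumping, metallothioneins are small cysteine-rich proteins that bind metals, and malate synthase is an enzyme of the glyoxylate cycle, by which seedlings turn stored lipid into sugar.

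The table names loci by LOC_Os identifiers only. A symbol is used where a locus and symbol pair recalled from general knowledge had its symbol in the RefSeq table of the ASM3414082v1 assembly, on the same chromosome and near the place its number implies. This is an indirect match, and it named 8 of the 124 genes. The other genes are given by identifier, with no statement of what they encode.

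The spread among the 124 genes was wide. Their D6_100X means ran from 5.21 to 1794 FPKM with a median of 20.1, and 28 lay under 10 FPKM while 13 lay at 100 FPKM or more. The ratio of the lower D6_100X value to the highest other value had a median of 2.53 and reached 9.23, with 33 genes at 3 or more and 59 under 2.5. Against the D6_CK mean alone, the D6_100X mean was 2.16 to 14.8 times as high, with a median of 3.24. The D6_100X libraries lay close to each other, a median of 1.13-fold apart. For 18 genes they were at least 1.5-fold apart, up to 2.24-fold.

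**Figure D1:**
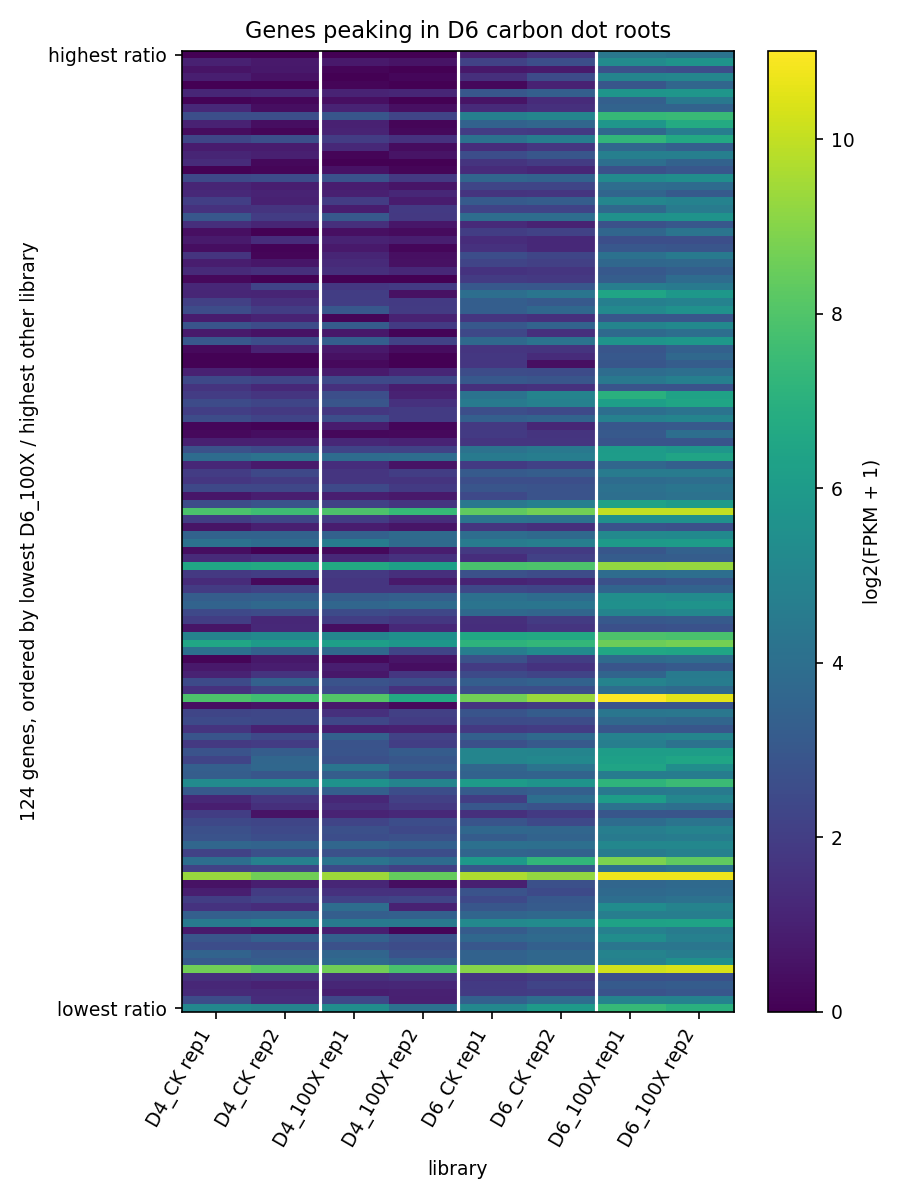
Levels of the 124 genes in the 8 libraries, as log2(FPKM + 1), 1 gene a row, ordered by the ratio of the lower D6_100X library to the highest other library. The D6_100X columns are the brightest by choice of the genes, and the D6_CK columns are brighter than the 4 D4 columns in most rows.

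Added up, the genes made 1.80% and 1.71% of all FPKM in the D6_100X libraries. They made 0.578% and 0.652% in D6_CK, 0.354% and 0.288% in D4_CK, and 0.386% and 0.228% in D4_100X. The 5 genes with the highest D6_100X mean carried 59.1% and 58.1% of that sum in D6_100X, so the sum mostly follows these 5.

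At the choice limits, LOC_Os01g68269 and LOC_Os05g01370 were just inside the fold limit, each with a ratio of 2.006. LOC_Os03g49524 and LOC_Os08g28870 were just outside it, with ratios of 1.995 and 1.993. At the level limit, LOC_Os09g28500 with 5.05 FPKM and LOC_Os05g38940 with 5.22 FPKM in the lower library were just inside. LOC_Os05g01570 with 4.97 FPKM and LOC_Os11g28940 with 4.96 FPKM were just outside.

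Among auxin genes, 2 Aux/IAA repressor genes were chosen, IAA16 (LOC_Os05g09480) and IAA20 (LOC_Os06g07040). IAA16 read 3.16 and 2.501 FPKM in D4_CK, 2.44 and 2.81 in D4_100X, 5.35 and 4.38 in D6_CK, and 14.6 and 17.1 in D6_100X. The D4 groups overlapped, and both D6_CK libraries lay above all 4 D4 libraries. IAA20 read 7.50 and 8.51 FPKM in D4_CK, 13.02 and 9.86 in D4_100X, 10.1 and 11.7 in D6_CK, and 26.5 and 44.1 in D6_100X. Both D4_100X libraries of IAA20 were above both D4_CK libraries, with a log2 difference of 0.46 ± 0.24 (SE, n = 2 per group).

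Of 27 Aux/IAA loci with a matched symbol, the other 25 were not chosen, and 24 of these passed the filter of at least 1 FPKM in at least 2 libraries. In this set, 1 gene rose with carbon dots at D6 and none fell in the fit without a replicate block, where 0.404% and 0.118% of all 22794 tested loci rose and fell (limma adjusted p under 0.05). The median log2 fold change of the 24 genes was 0.00 against -0.02 over all tested loci. The choice had taken IAA16 and IAA20 out of this set by their D6_100X values, while all tested loci still held the 124 chosen genes. The count and median of the 24 are therefore a description, and nothing about the family is read from them. The gene that rose was IAA2, another Aux/IAA repressor gene, with 8.83 and 8.64 FPKM in D6_CK and 14.8 and 14.9 in D6_100X. Its log2 fold change was 0.71 ± 0.09 (SE, n = 2 per group, adjusted p = 0.0450), and the call was lost in 9 of 16 other settings, among them each of the 6 that left out a D4_CK or D6 library.

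CKX4 (LOC_Os01g71310), a cytokinin oxidase gene, read 2.20 and 1.43 FPKM in D4_CK, 1.90 and 0.861 in D4_100X, 1.76 and 1.96 in D6_CK, and 6.17 and 6.12 in D6_100X. The other 3 groups overlapped, and no step from D4 to D6 was seen in the control values. The remaining cytokinin oxidase genes with a symbol, of which 5 were tested, gave no call at D6. CKX11 came nearest, with 12.6 and 12.02 FPKM in D6_CK and 20.3 and 20.5 in D6_100X (log2 fold change 0.69 ± 0.13 (SE, n = 2 per group), limma adjusted p = 0.0822).

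MYB2 (LOC_Os03g20090), a MYB regulator gene known in rice for tolerance of salt, cold and drying, read 1.22 and 0.920 FPKM in D4_CK, 0.821 and 0.522 in D4_100X, 3.98 and 3.88 in D6_CK, and 14.5 and 13.6 in D6_100X. The groups formed steps with no overlap, D4_100X lowest and D6_100X highest. MYBAS1 (LOC_Os11g47460), a second MYB gene, read 21.5 and 26.8 FPKM in D4_CK, 21.8 and 20.8 in D4_100X, 35.4 and 38.8 in D6_CK, and 80.1 and 81.9 in D6_100X. Its close relative MYBAS2 stayed under 1 FPKM in all 8 libraries.

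HSP17.9A (LOC_Os03g15960), a small heat shock protein gene, read 4.18 and 3.80 FPKM in D4_CK, 4.39 and 4.31 in D4_100X, 7.23 and 6.46 in D6_CK, and 20.2 and 25.6 in D6_100X. The 4 other tested small heat shock genes with a matched symbol gave no call at D6 and differed among themselves. HSP17.9B read 15.2 and 16.5 FPKM in D6_CK and 31.9 and 30.7 in D6_100X (limma adjusted p = 0.234, n = 2 per group). HSP18.1 read 31.5 and 30.5 FPKM in D6_CK and 22.3 and 24.6 in D6_100X (limma adjusted p = 0.150). A listed locus without a matched symbol, LOC_Os01g08860, read 10.9 and 10.6 FPKM in D6_CK and 13.5 and 11.7 in D6_100X.

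None of the 7 listed dehydration genes was among the 124, and none of the 6 tested passed at D6 (median log2 fold change 0.16). What the chosen genes without a symbol encode is not stated, so whether other dehydration genes were chosen was not tested. RAB21, a dehydrin gene, read 13.8 FPKM in D6_CK replicate 1 and 0.688 in replicate 2, against 2.54 and 2.17 in D6_100X. The D6_CK replicates were also far apart for RAB16D (8.54 and 0.367 FPKM) and LEA19 (5.77 and 1.28), but not for DHN1 (92.2 and 87.5). The part of D6_CK replicate 1 in the lack of calls was not tested. Of 5 loci listed as stress NAC regulator genes, 2 had a matched symbol, and neither of these passed, with 100 and 81.3 FPKM in D6_CK and 149 and 135 in D6_100X for NAC6 (limma adjusted p = 0.110, n = 2 per group). A listed locus without a matched symbol, LOC_Os11g03300, was itself one of the 124. It read 0.872 and 2.82 FPKM in D4_CK, 1.97 and 1.94 in D4_100X, 6.01 and 4.58 in D6_CK, and 12.5 and 13.4 in D6_100X.

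The calls on these family genes at D6 depended on how the replicate numbers were used. With the number as a block over all libraries none was called, and with a block within D4 only 7 were called, all higher. These 7 were IAA2, IAA17, IAA18, CKX11, HSP17.9B, DHN1 and NAC6.

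MT2B (LOC_Os01g74300), a metallothionein gene, had the highest mean of all 124 genes in D6_100X, though LOC_Os01g15270 was higher in each D4 library and in the D6_CK mean. It read 242 and 198 FPKM in D4_CK, 268 and 101 in D4_100X, 403 and 657 in D6_CK, and 2066 and 1521 in D6_100X. Its means were 530 ± 179 FPKM in D6_CK and 1794 ± 385 in D6_100X (SD, n = 2). Other metallothionein genes, looked up after the values of MT2B were seen, went different ways. MT2A read 30.2 and 35.5 FPKM in D6_CK and 99.4 and 76.7 in D6_100X, and missed the choice because D4_100X replicate 1 read 38.6 FPKM. MT2C read 244 and 400 FPKM in D6_CK and 985 and 472 in D6_100X. MT1B read 233 and 367 FPKM in D6_CK and 68.3 and 200 in D6_100X, the reverse order. None of these 3 passed at D6 (limma adjusted p = 0.0877 for MT2A, 0.337 for MT2C and 0.369 for MT1B, n = 2 per group).

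MS (LOC_Os04g40990), the malate synthase gene, read 4.60 and 9.57 FPKM in D4_CK, 6.01 and 5.27 in D4_100X, 8.77 and 10.2 in D6_CK, and 29.4 and 23.8 in D6_100X. The D4_CK libraries overlapped D4_100X and D6_CK, while both D4_100X libraries lay below both D6_CK libraries. ICL, the gene of isocitrate lyase, the partner enzyme in the glyoxylate cycle, was not on the planned lists and shared the pattern of MS only in part. It read 4.14 and 4.49 FPKM in D4_CK, 0.381 and 4.12 in D4_100X, 0.0497 and 0.712 in D6_CK, and 8.71 and 1.29 in D6_100X, with widely spread replicates. Both D6_100X libraries of ICL lay above both D6_CK libraries, with no call (log2 fold change 1.82 ± 0.80, SE, n = 2 per group, limma adjusted p = 0.334). Unlike in MS, both D4_CK libraries lay above both D6_CK libraries and above D6_100X replicate 2.

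**Figure D2:**
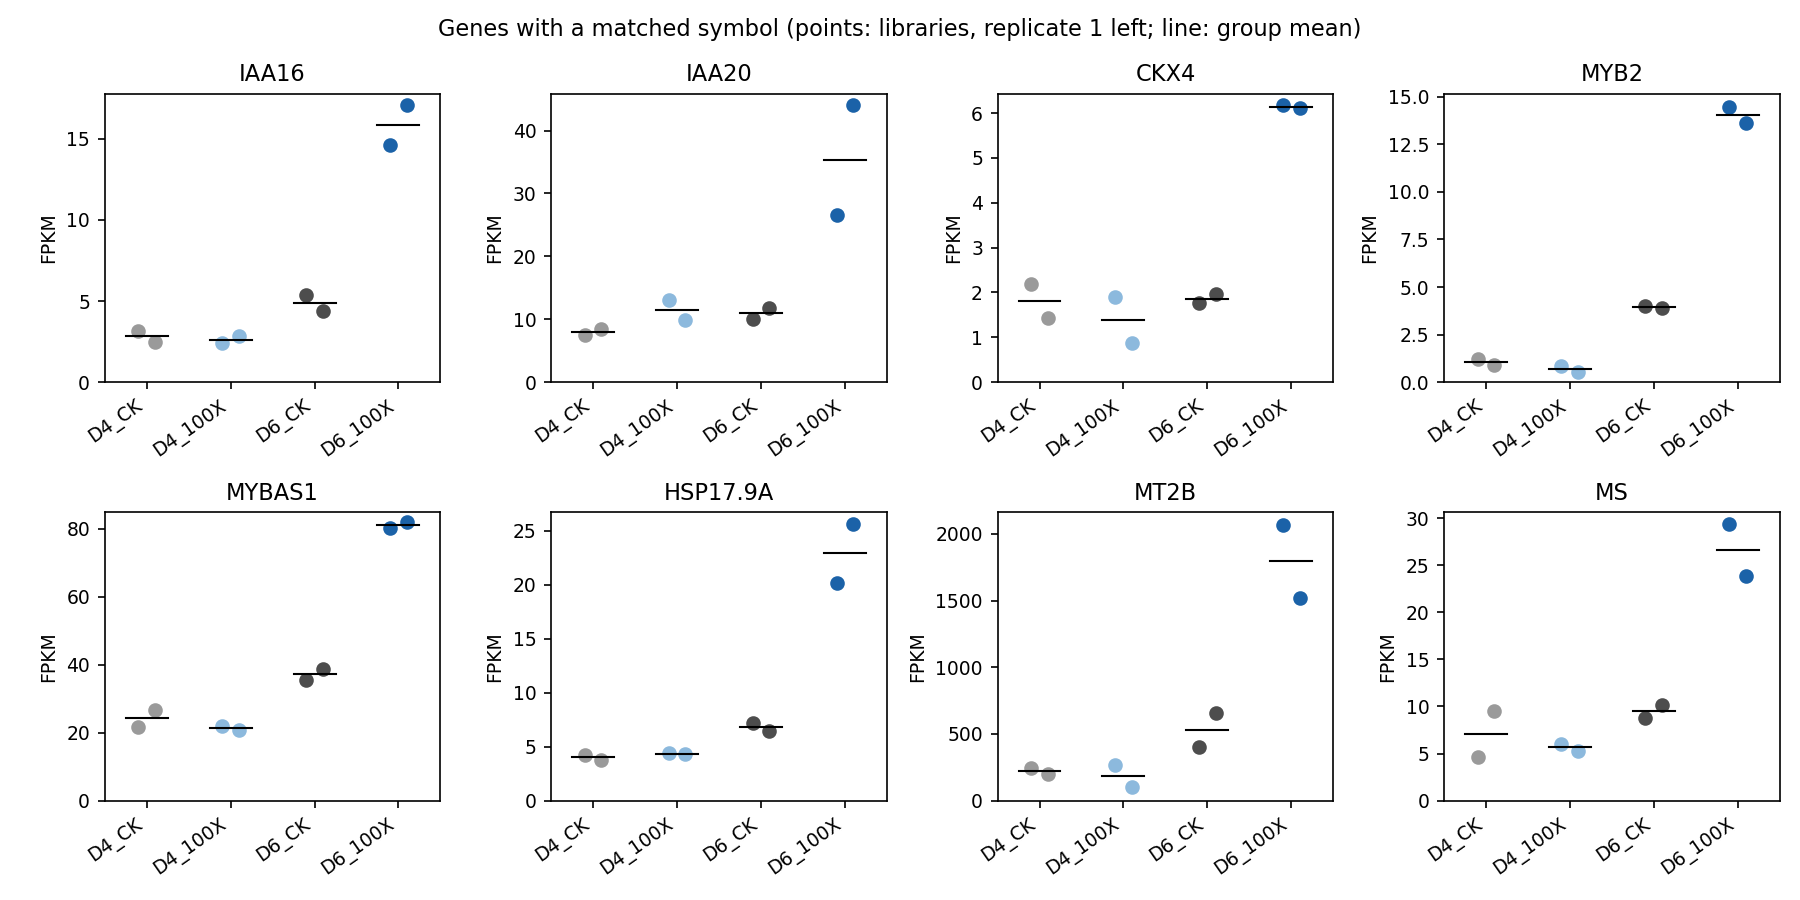
FPKM of the 8 chosen genes with a matched symbol, in the 4 groups. Points are libraries, replicate 1 on the left, lines are group means, and each vertical axis starts at 0. MYBAS1 and CKX4 have nearly equal D6_100X libraries, while IAA20 reads 26.5 and 44.1 FPKM.

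The gene with the highest ratio was LOC_Os12g33150, which was the gene listed at 0 in all 4 D4 libraries. It had 6 and 13 reads in D6_CK (0.875 and 1.89 FPKM) and 136 and 120 reads in D6_100X (19.8 and 17.5 FPKM). Next came LOC_Os01g73250, with 1.02 and 0.679 FPKM in D4_CK, 0.679 and 0.510 in D4_100X, 3.54 and 5.26 in D6_CK, and 39.3 and 48.9 in D6_100X. In both genes the D4, D6_CK and D6_100X libraries formed 3 levels that did not overlap.

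LOC_Os09g28500 differed from them in having no step at D6_CK. It read 0.479 and 0.638 FPKM in D4_CK, 0.106 and 0 in D4_100X, 0.638 and 0.745 in D6_CK, and 5.37 and 5.05 in D6_100X. LOC_Os01g06310 had 2 reads over all 4 D4 libraries, 3 and 18 reads in D6_CK, and 115 and 196 reads in D6_100X. Its fold of D6_100X over D6_CK was the highest of the 124 and rests on those few control reads.

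The other genes among the 10 highest ratios included some at much higher levels. LOC_Os07g35560 read 5.18 and 5.34 FPKM in D4_CK, 6.66 and 3.84 in D4_100X, 26.3 and 31.4 in D6_CK, and 164 and 175 in D6_100X. LOC_Os11g24140 read 1.096 and 0.329 FPKM in D4_CK, 1.04 and 0.110 in D4_100X, 10.03 and 11.3 in D6_CK, and 54.1 and 106 in D6_100X, where the replicates lay far apart. LOC_Os06g24190 read 1.497 and 1.88 FPKM in D6_CK and 10.3 and 10.4 in D6_100X, above 0.333 to 1.44 at D4. Of these 10 genes, 9 had both D6_CK libraries above all 4 D4 libraries.

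The 5 genes with the highest D6_100X mean were MT2B and 4 without a symbol. LOC_Os01g15270 read 628 and 390 FPKM in D4_CK, 681 and 344 in D4_100X, 806 and 592 in D6_CK, and 1720 and 1695 in D6_100X. Its replicate 1 was the higher in both D4 groups and its control groups overlapped. LOC_Os05g47700 read 388 and 274 FPKM in D4_CK, 395 and 232 in D4_100X, 510 and 577 in D6_CK, and 1175 and 1329 in D6_100X. LOC_Os05g06780 read 324 and 406 FPKM in D6_CK and 1034 in each D6_100X library, above 165 to 247 at D4. LOC_Os05g02420 read 229 and 245 FPKM in D6_CK and 607 and 621 in D6_100X, above 76.1 to 103 at D4.

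In untreated roots, most of these genes also stood higher at D6 than at D4. The choice used these libraries too, and by asking for D6_100X values at least 2 times every D4 value it favours genes that are higher at D6 in any root. The values of the controls are therefore a description of the chosen genes, with no test, and nothing is read from their counts. The D6_CK mean was a median of 2.39 times the D4_CK mean over the genes with a D4_CK level above 0. On the log2(FPKM + 1) scale the median difference was 0.98, or 0.96 with the genes at 0 in D4_CK held at a floor of 3 reads per library, and it was -0.05 over all tested loci. The difference was above 0 for 123 of the 124 genes. The exception was LOC_Os02g52990, with 1.76 and 1.21 FPKM in D4_CK and 1.51 and 1.06 in D6_CK.

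The limma call rule (adjusted p under 0.05) was met by 59 of the 124 genes as higher in D6_CK and by none as lower. It was met by 5.42% of all tested loci as higher and by 4.72% as lower, and by 7.18% as higher among loci of at least 5 FPKM in both D6_100X libraries. These larger sets were not picked by their D4 values, so they are no measure for the chosen genes. The 59 also moved with single libraries, down to 3 without D6_CK replicate 1. In that setting only 29 of the 22794 tested loci (0.127%) met the rule as higher, so the calls fell over all loci as well.

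In the library values, both D6_CK libraries lay above all 4 D4 libraries for 100 of the 124 genes (80.6%). The same held for 20.2% of tested loci and for 23.8% of loci of at least 5 FPKM in both D6_100X libraries, which were not picked by their D4 values. Both lay below all 4 for none of the genes and for 25.2% of tested loci. The highest other group mean was D6_CK for 119 genes, D4_100X for 4 and D4_CK for 1.

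Among the 8 genes with a symbol, MYB2 and MT2B differed most between the control groups. The log2 difference of D6_CK from D4_CK was 1.26 ± 0.15 for MYB2 (SE, n = 2 per group) and 1.23 ± 0.46 for MT2B. It was 0.65 ± 0.14 for HSP17.9A, 0.61 ± 0.12 for MYBAS1 and 0.61 ± 0.15 for IAA16. CKX4 was at the other end with 0.04 ± 0.24, an error wider than its difference.

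The 10 genes named for the control values, by the order of the fit, were LOC_Os01g71350, LOC_Os07g34070, LOC_Os04g11400, LOC_Os07g35560, LOC_Os09g39190, LOC_Os07g09310, LOC_Os04g11390, LOC_Os02g53130, LOC_Os11g25780 and LOC_Os03g45280. Their log2 differences ran from 1.20 for LOC_Os07g09310 to 2.74 for LOC_Os02g53130. LOC_Os01g71350 (log2 difference 1.94 ± 0.14, SE, n = 2 per group) read 1.27 and 1.44 FPKM in D4_CK, 1.13 and 1.27 in D4_100X, 7.04 and 9.13 in D6_CK, and 52.9 and 53.6 in D6_100X. LOC_Os02g53130 read 0.715 and 0.457 FPKM in D4_CK, 0.915 and 0.114 in D4_100X, 8.06 and 11.4 in D6_CK, and 26.9 and 23.3 in D6_100X. Its D6_CK mean was 16.597 times its D4_CK mean, a wider step than the 2.58 times from D6_CK to D6_100X.

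By the size of the step in the controls, 36 genes had a D6_CK mean at least 4 times their D4_CK mean, 37 had 2 to 4 times, 24 had 1.5 to 2 times, 24 had 1 to 1.5 times and 1 was lower. A further 2 were at 0 in both D4_CK libraries. Folds over D4_CK rest on few reads for the 8 genes whose D4_CK mean was below the worth of 3 reads. The D6_100X mean was a median of 2.80 times the D6_CK mean in the genes with 1 to 1.5 times, and 4.29 times in those with at least 4 times. These folds share the D6_CK libraries and are given side by side only.

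**Figure D3:**
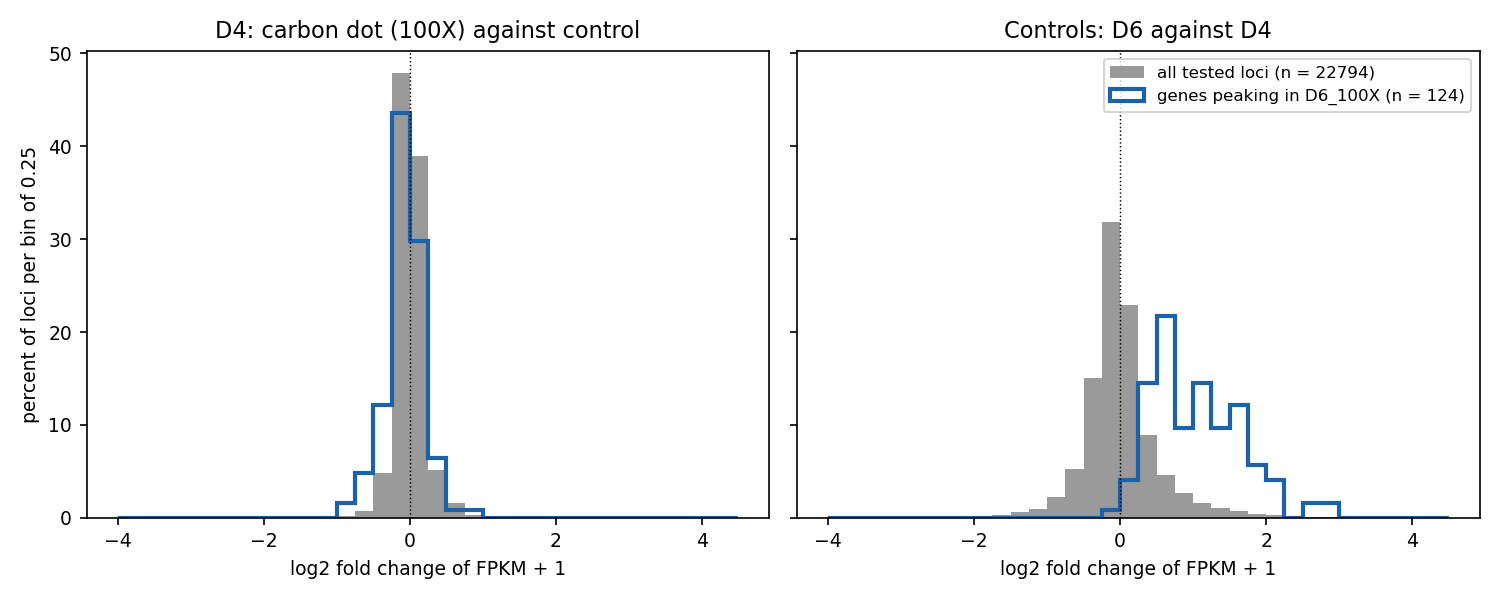
Log2 fold changes of FPKM + 1 for the 124 genes (blue outline) and for all 22794 tested loci (grey), as percent of loci per bin, for carbon dots against control at D4 (left) and for D6 against D4 in the controls (right). The outline lies over the grey bars at D4 and to the right of them in the controls, with medians of -0.05 and 0.98, in genes chosen by values of these libraries.

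At D4, the log2 differences of these genes between carbon dot and control libraries had a median near 0 and ran from -0.80 to 0.98. The choice held both D4 groups under the same limit, which keeps out genes already high in D4_100X, so these values too are a description with no test. The median log2 difference of D4_100X from D4_CK was -0.05 over the 124 genes and -0.01 over all tested loci, and 46 of the 124 were above 0. This median was -0.22 without D4_100X replicate 1 and 0.10 without D4_100X replicate 2, so its sign rests on those libraries. The limma call rule (adjusted p under 0.05) was met by none of the 124 and by 0% of tested loci. Before adjustment, 7 genes (5.65%) had a limma p under 0.05, all lower in D4_100X. Over all tested loci the share was 1.90%, with 215 loci higher and 217 lower. Those loci were not picked by their D4 values, so they are no measure for the chosen genes.

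In the library values at D4, both D4_100X libraries lay above both D4_CK libraries for 7 genes (5.65%), against 8.7% of tested loci. They lay below for 14 genes (11.3%), against 10.7%. LOC_Os08g28670, which came first of the 124 in the fit at D4, read 4.96 and 6.10 FPKM in D4_CK, 3.35 and 2.27 in D4_100X, 19.5 and 25.9 in D6_CK, and 79.5 and 65.9 in D6_100X. Its D4_100X libraries lay below D4_CK, while its D6_100X libraries lay above D6_CK.

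The median SD between replicates on the log2 scale was 0.29 in D4_100X and 0.19 in D4_CK for the 124 genes, against 0.15 and 0.14 over tested loci. D4_100X replicate 2 was the lowest of the 4 D4 libraries for 60 genes (48.4%), against 31.0% of tested loci. Replicate 1 was above replicate 2 in both D4 groups for 50 genes (40.3%), against 38.7%, and replicate 2 was the higher in both for 24 genes (19.4%), against 32.1%. In D6_CK the median SD was 0.15 against 0.09, and in D6_100X it was 0.11 against 0.09.

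Position was not used in the choice. By locus number, 19 of the 124 genes (15.3%) had another of them within 100 numbers on the same chromosome, where 4.75% of the 14341 loci of at least 5 FPKM in both D6_100X libraries had one of the 124 that near. The 19 genes formed 8 pairs and 1 group of 3. Whether such neighbours are near-identical copies whose reads the counting could split was not tested.

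The group of 3 was LOC_Os05g05020, LOC_Os05g05030 and LOC_Os05g05040. LOC_Os05g05030 read 4.85 and 2.94 FPKM in D4_CK, 6.87 and 2.78 in D4_100X, 8.67 and 11.7 in D6_CK, and 34.95 and 47.0 in D6_100X. LOC_Os05g05020 read 1.13 and 1.33 FPKM in D6_CK and 5.57 and 6.89 in D6_100X, and LOC_Os05g05040 read 1.997 and 1.40 and then 7.06 and 6.39. All 3 had replicate 1 above replicate 2 in both D4 groups. The nearby LOC_Os05g05060, singled out after its values were seen, read 14.1 and 23.8 FPKM in D6_CK and 68.3 and 63.0 in D6_100X, but 57.1 FPKM in D4_100X replicate 1, and was not chosen.

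LOC_Os06g39110 and LOC_Os06g39120 followed each other closely over the 8 libraries. The first read 1.30 and 1.19 FPKM in D4_CK, 2.95 and 0.415 in D4_100X, 14.7 and 18.5 in D6_CK, and 88.7 and 56.9 in D6_100X. The second read 2.93 and 2.28 FPKM in D4_CK, 5.21 and 1.11 in D4_100X, 17.5 and 29.3 in D6_CK, and 125 and 80.6 in D6_100X. In both genes the D6_CK libraries lay above all D4 libraries, with log2 differences from D4_CK of 2.96 ± 0.46 and 2.72 ± 0.51 (SE, n = 2 per group). For both, D6_100X replicate 1 was the higher library, whereas 80 of the 124 genes were higher in replicate 2.

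LOC_Os04g11390 and LOC_Os04g11400 were a second adjoining pair with a step in the controls. They read 17.89 and 16.92 FPKM and 16.8 and 20.1 FPKM in D6_CK, and 45.4 and 45.6 FPKM and 65.5 and 54.2 FPKM in D6_100X. All their D4 values lay between 1.65 and 5.64 FPKM, and for both genes the D4_100X libraries lay below the D4_CK libraries.

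LOC_Os12g33120 and LOC_Os12g33150 were both among the 10 highest ratios. LOC_Os12g33120 read 0.900 and 0.450 FPKM in D4_CK, 0 and 0.150 in D4_100X, 1.80 and 4.73 in D6_CK, and 30.4 and 32.3 in D6_100X. The loci between them, LOC_Os12g33130 and LOC_Os12g33140, were listed at 0 in every library, and the next locus, LOC_Os12g33160, read 10.02 to 12.9 FPKM throughout.

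In the pair CKX4 and LOC_Os01g71350, the second gene had a step from D4 to D6 in the controls and the first had none, as described above. LOC_Os07g47400 read 12.6 and 17.5 FPKM in D6_CK and 51.6 and 55.3 in D6_100X, and its neighbour LOC_Os07g47390 read 1.56 and 1.28 and then 5.52 and 6.86. The remaining 3 pairs ran from partners of like level to partners far apart. LOC_Os01g68269 had 165 and 125 FPKM in D6_100X and LOC_Os01g68300 had 8.98 and 20.1. LOC_Os01g15270 had 1720 and 1695 FPKM and LOC_Os01g15340 had 28.3 and 31.0. LOC_Os07g02440 had 13.9 and 14.7 FPKM and LOC_Os07g02540 had 7.07 and 8.75.

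**Figure D4:**
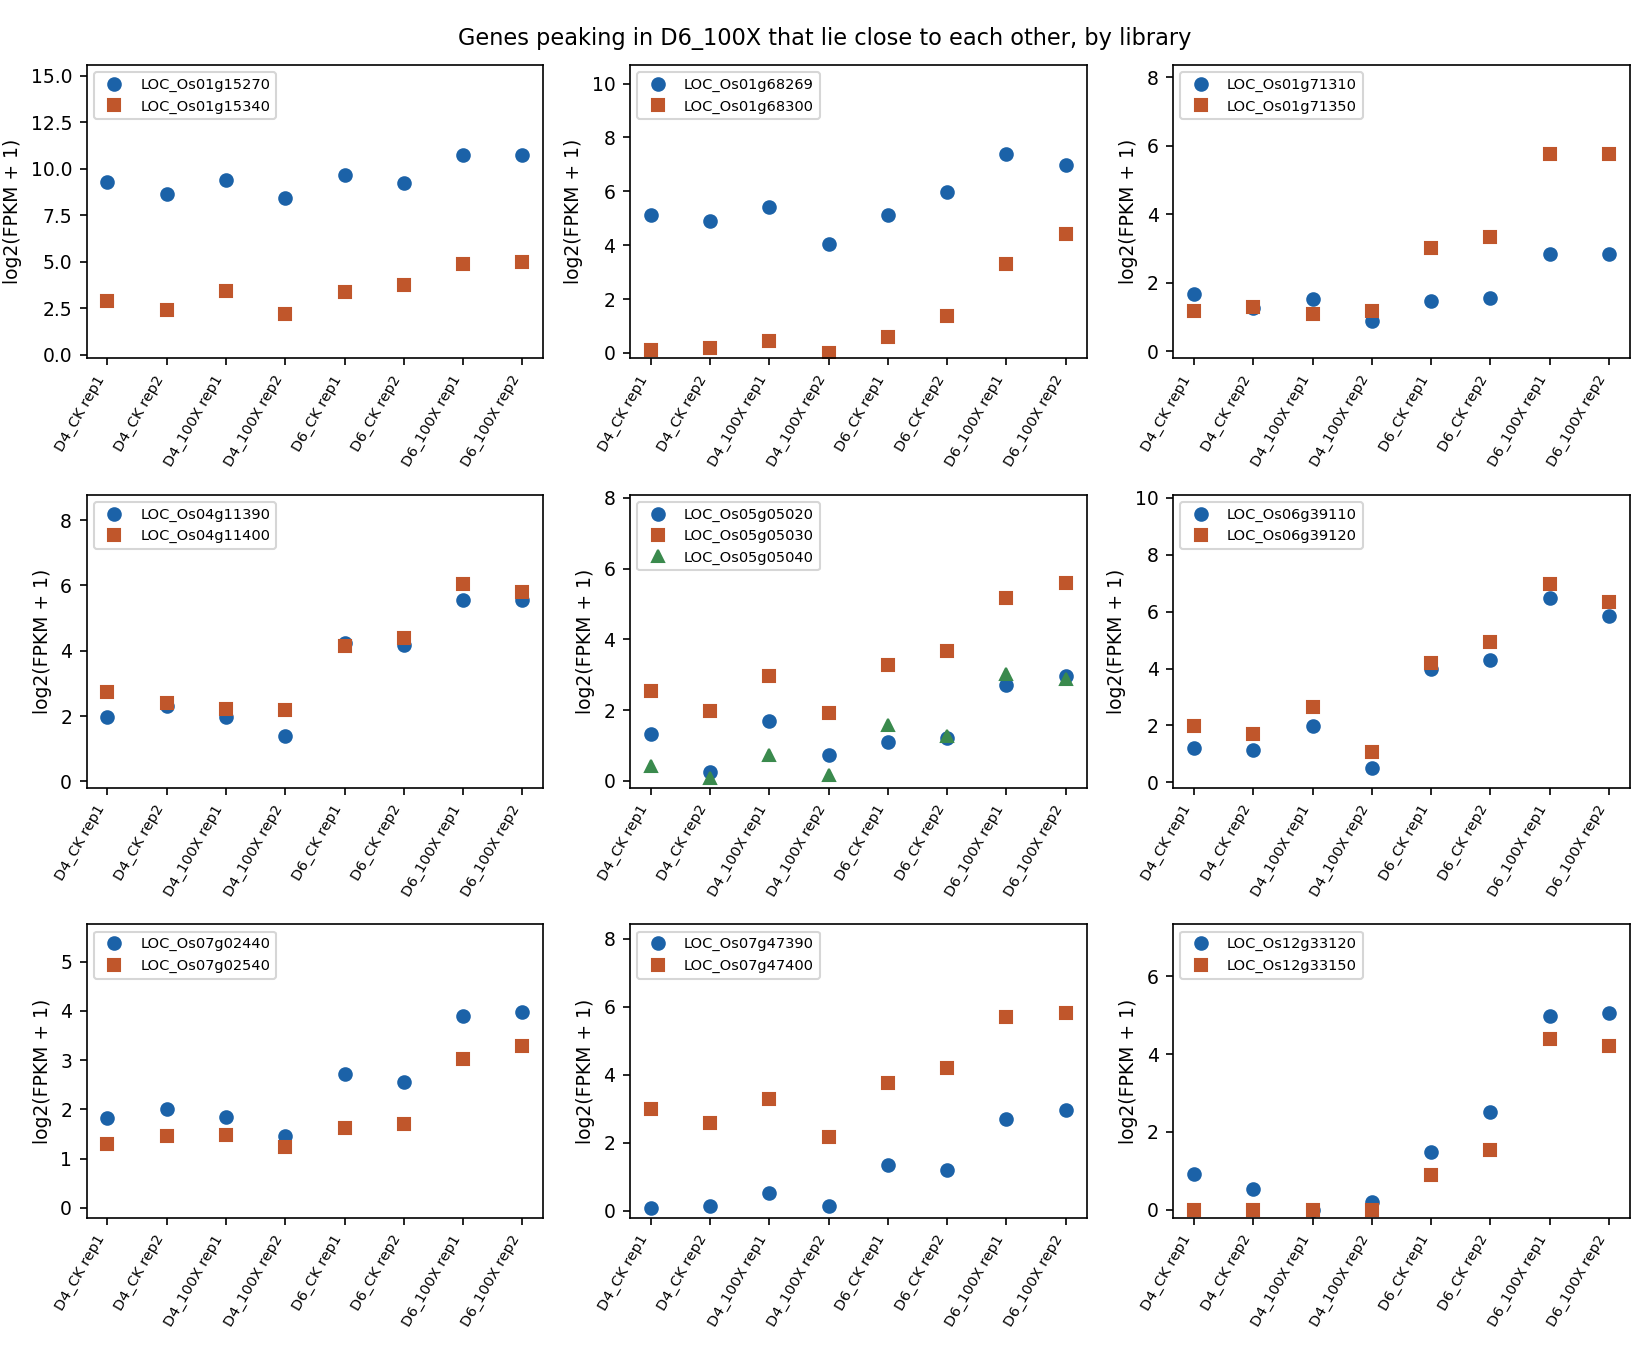
Levels of the 19 neighbouring genes in each library, as log2(FPKM + 1), 1 panel for each pair or group of 3. The partners LOC_Os06g39110 and LOC_Os06g39120 keep nearly the same order of libraries, while LOC_Os01g71350 is higher in D6_CK than at D4 and CKX4 (LOC_Os01g71310) overlaps.

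The chosen genes were shorter than most. The gene lengths implied by the FPKM steps had a median of 1161.5 bases, against 1761 for loci of at least 5 FPKM in both D6_100X libraries. Under 1000 bases were 52 of the genes (41.9%), against 16.5% of those loci. By chromosome, the share of tested loci that were chosen ran from 0.246% on chromosome 10 to 0.792% on chromosome 6, with 0.544% over all.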

How the data were processed

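Poly(A) RNA of rice roots was sequenced in 8 libraries, 2 in each of 4 groups given by the titles. The deposited table holds FPKM as the authors made them. The submitters' processing notes name featureCounts 1.6.4 beside HISAT2, fastp and SAMtools, with neither settings nor build nor annotation. The members and gene lists were chosen with earlier results of these data known.

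FPKM are not counts. Loci of at least 1 FPKM in at least 2 libraries (22794) were tested on log2(FPKM + 1) with limma 3.58.1 in R, 1 mean per group over all 8 libraries, a trend in eBayes, Benjamini-Hochberg adjustment over all tested loci and a threshold of 0.05. Fold changes on this scale understate those of low genes. All 124 genes passed the filter, as their choice ensured. For the 124 genes the fit gives differences and errors. Their counts of calls and their order in the fit are descriptions and no tests, since their choice used every library. This departs from the planned tests of D4 and of the controls. Tests are given for genes not chosen. Family sets lack any gene that the choice took by its D6_100X values, while all tested loci hold those genes. Counts and medians of a family set at D6 are therefore descriptions. The fit was tried on simulated data with independent noise, for the D4 and control comparisons only, so the calls at D6 were not covered. Reads and gene lengths were recovered from the FPKM steps: all 34269 loci above 0 gave whole reads within 0.005 reads plus a share of 3e-07. The smallest length that fitted was kept, so at loci of few reads some fit is nearly assured and does not check the length. Reads cover counting error only. Genes named were the 10 highest ratios, the 5 highest means, all with a symbol, up to 10 calls per comparison, neighbours, and those at the limits. Fixed motif searches in promoters were not run, as no promoter sequence was used here.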

Additional observations from a re-analysis of the deposited data

How the results depend on the processing

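Counts of members are descriptions, since the choice used these libraries. No member was called at D4 in any of the 16 alternatives, in either direction. The 59 members higher in D6_CK than in D4_CK became 37 with no filter and 3 to 76 when 1 library was left out, and the other alternatives gave 41 to 81. No member was lower in any. With the replicate number as a block the count was 60, and 81 with a block within D4 only. The share of all tested loci called higher moved too. It was 5.42% in the main fit, 2.19% with no filter, 6.25% with the block and 11.1% with the block within D4 only. With 1 library left out it ran from 0.127% without D6_CK replicate 1 to 6.55% without D4_100X replicate 2. In the remaining alternatives it ran from 2.95% with only the 4 libraries compared to 6.70% with a filter of mean FPKM of at least 5. The 41 came with a filter of mean FPKM of at least 5, which 82 members passed. Deviations of same-numbered libraries correlated at 0.602 in D4_CK and D4_100X and -0.112 in D6_CK and D6_100X, so the numbers were not taken as pairs. The family genes called at D6 went from 1 to 0 with a pseudocount of 0.1, no filter or the replicate block, to 7 with the block within D4 only, to 3 with only the 4 libraries compared, and to 0 to 2 with 1 library left out. The cause was not tested. A fold limit of 1.5 gave 376 members and one of 3 gave 33. Leaving out 1 library gave 124 to 213, as fewer libraries then bind the choice. Over the named members, 60 of 646 alternative values in the controls lost a call and 20 gained one, and none changed direction past the threshold. Depth limits the lowest genes: 11 members had under 100 reads in the lower D6_100X library, and 21 lay under 1 FPKM in all 4 D4 libraries.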

Other observations

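Close to CKX4 and LOC_Os01g71350, 2 loci that were not chosen had other patterns, and both were singled out after their values were seen. LOC_Os01g71340 read 5.19 and 23.7 FPKM in D4_CK, 5.84 and 16.0 in D4_100X, 54.2 and 71.2 in D6_CK, and 78.6 and 60.5 in D6_100X, so that its D6 groups overlapped. LOC_Os01g71380 read 5.84 and 44.4 FPKM in D4_CK, 8.86 and 44.1 in D4_100X, 9.27 and 10.04 in D6_CK, and 1.42 and 5.35 in D6_100X, where it was lowest. For both loci replicate 2 was the higher in each D4 group.

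The metallothionein gene MT1A read 638 and 875 FPKM in D4_CK, 785 and 823 in D4_100X, 1980 and 1873 in D6_CK, and 1980 and 2277 in D6_100X. It rose in the controls from D4 to D6 (log2 fold change 1.36 ± 0.18, SE, n = 2 per group, limma adjusted p = 0.0113) and gave no call with carbon dots at D6 (adjusted p = 0.756).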
